A study of Mus musculus with 4 samples.

Results

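LIF signals to the nucleus through a short chain of proteins, and the transcripts of 8 genes along it were followed here in mouse embryonic stem cells (ESCs) kept in serum or in 2i. The genes were picked by name for their place in the chain, with earlier results of these data already known. They run from the receptor subunits Lifr and Il6st through the kinase gene Jak1 and the transcription factor gene Stat3 to the response genes Socs3, Pim1, Pim3 and Gbx2. All 8 were among the 14533 genes of the table, and all 8 were among the 13005 genes tested, which needed a mean of 50 normalized counts or more in either condition.

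LIF (leukemia inhibitory factor) joins LIFR to gp130, the product of Il6st, and the Janus kinases bound to the receptor tails then phosphorylate docking sites for STAT3. Phosphorylated STAT3 dimerizes, enters the nucleus and switches on genes that include its own brake, Socs3. In mouse ESCs grown with serum this route is known for holding back differentiation, whereas the inhibitors of 2i medium hold the cells in the naive state largely by other routes.

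The 4 libraries were RNA-seq of FACS-sorted G1-phase cells, 2 from serum ESCs and 2 from 2i ESCs. Serum medium held fetal calf serum and LIF, while 2i medium was serum-free and held the MEK inhibitor PD0325901, the GSK3 inhibitor CHIR99021 and, per the study's methods, LIF as well, so both groups were given the ligand. Cells of both groups had been adapted to their medium for over 20 days. The sample labels give late G1-phase and the series design text early G1-phase, and no genotype, clone or animal age is given for these libraries. The study made R1 ESCs with the FUCCI reporter, a pair of fluorescent proteins whose levels follow the cell cycle, for sorting, but the labels do not name the line behind these libraries. The design text calls the 2 libraries of a group biological replicates without saying whether they were separate cultures, so the p-values measure the spread between these samples.

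The libraries held 18939401 to 26570098 whole reads, and the 10 most abundant genes took 17.5% to 50.6% of them. The replicates differed by a median of 0.53 on the log2 scale in serum and 0.76 in 2i over all 13005 genes. Pluripotency markers were present in all 4 libraries, with 6 of 6 in the table and a summed level of 33627 and 46000 normalized counts in serum against 33081 and 49765 in 2i. Of the 6 primitive endoderm markers 3 were in the table, summing to 25.0 and 67.1 in serum against 272 and 229 in 2i, and Foxa2, Sox7 and Dab2 were not among its genes. Of the 6 fibroblast markers 2 were in the table, Col1a1 and Thy1, summing to 230 and 193 in serum against 199 and 58.2 in 2i. Of the 3 neural markers 2 summed to 341 and 636 in serum against 359 and 338 in 2i, and of the 3 mesoderm markers 2 summed to 259 and 139 against 244 and 179. The symbol of the neural marker Sox1 was not in the GENCODE annotation used, so its level was not read. The part these markers play in the results was not tested. These are bulk libraries, in which fewer cells carrying a transcript and less of it per cell cannot be told apart.

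Gbx2 and Il6st had the largest absolute fold changes of the 8 and Stat3 and Pim1 the smallest. Gbx2 averaged 848 normalized counts in serum ESCs and 140.5 in 2i ESCs, and Il6st averaged 1773 against 754, with no overlap between the groups. Jak1 lay the other way, at 1033 in serum and 1643 in 2i. Stat3 itself was read at 2009 in serum and 2094 in 2i. The remaining response genes Socs3, Pim1 and Pim3, and the receptor gene Lifr, had overlapping groups. In limma, fitted to log2(normalized count + 1) over all 13005 genes, 0 of the 8 passed an adjusted p under 0.05 with a fold change over 2, against 0.0154% of all genes. At an unadjusted p under 0.05 the count was 2 of 8, Il6st and Gbx2, against 5.97% of all genes. edgeR called 0 of all 13005 genes, so its counts for the 8 and for the lists below could only be 0. DESeq2 called 1 of the 8, Gbx2, against 1.93% of all genes. Both serum libraries stood above both 2i libraries for 2 of the 8 (Il6st and Gbx2), where 20.5% of all genes did so, and below for 2 of the 8 (Jak1 and Stat3), where 19.4% did so. Those shares lie near the background and say nothing particular about these genes. The median log2 fold change of the 8 was 0.18, beside 0.0047 over all genes. It was 0.03 in edgeR, 0.04 in DESeq2 and 0.05 under upper quartile scaling, where the medians over all genes were -0.07, -0.06 and -0.12, and it was 0.77 without 2i replicate 1.

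**Figure D1:**
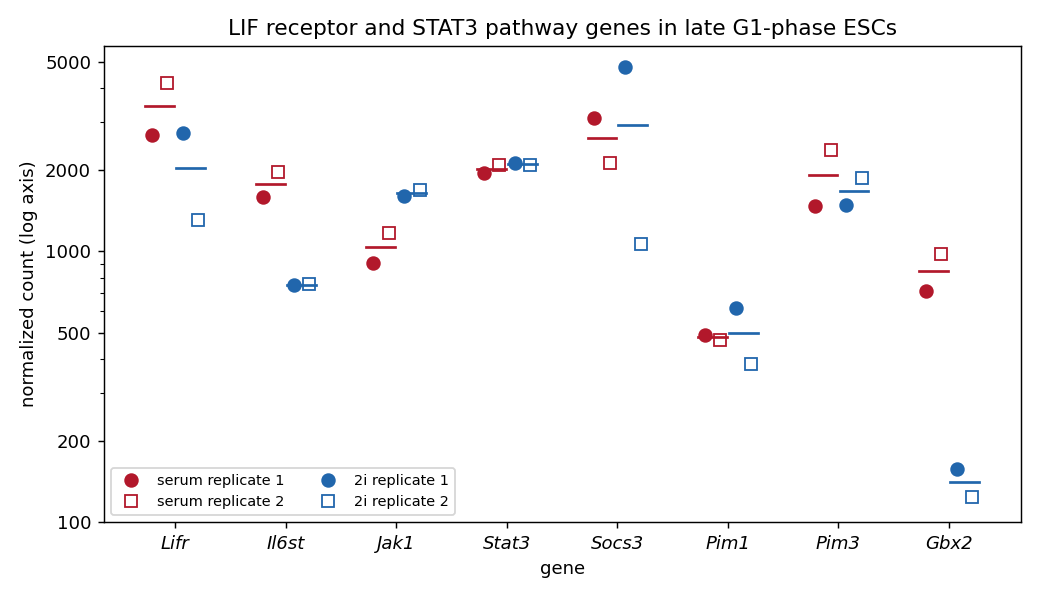
Normalized count on a log axis for each of the 8 genes in late G1-phase ESCs, with serum libraries in red, 2i libraries in blue, replicate 1 as filled circles, replicate 2 as open squares and the group mean as a bar. Gbx2 and Il6st separate with serum above, Jak1 separates with 2i above, and Socs3 in 2i spans 1066 to 4773.

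Lifr (ENSMUSG00000054263, mm9 chr15:7079559-7147489, plus strand) encodes the subunit that gives the receptor its preference for LIF. Its normalized counts were 2697 and 4181 in serum replicates 1 and 2, against 2744 and 1308 in 2i replicates 1 and 2. Serum replicate 1 lay just under 2i replicate 1, so the groups overlapped, and the 2i replicates stood 2.10-fold apart. The group means were 3439 ± 1049 and 2026 ± 1016 (SD, n = 2 each). The limma log2 fold change of serum over 2i was 0.83 (SE 0.55, 95% interval -0.49 to 2.15, adjusted p = 0.759), and it ran from 0.29 without 2i replicate 2 to 1.36 without 2i replicate 1. Taken pair by pair, the log2 difference was -0.02 for serum replicate 1 over 2i replicate 1 and 1.68 for serum replicate 2 over 2i replicate 2.

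Il6st (ENSMUSG00000021756, mm9 chr13:113265216-113297068, plus strand) encodes gp130, the signaling subunit shared by the receptors of LIF, interleukin 6 and related cytokines. It was read at 1590 and 1957 normalized counts in serum versus 751 and 757 in 2i. The 2i replicates were nearly equal, and both serum libraries lay well above them. The means were 1773 ± 259 and 754 ± 4.28 (SD, n = 2 each), a ratio of 2.35. The log2 fold change was 1.23 (SE 0.42, 95% interval 0.21 to 2.24), and every pairing of a serum with a 2i library gave between 1.07 and 1.38. The unadjusted limma p was 0.0249 and the adjusted p 0.753, with an adjusted p of 0.692 in edgeR and 0.0653 in DESeq2. A difference of this size or larger is not rare in these libraries, since 81.6% of genes had a smaller absolute fold change.

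The receptor subunits kept no fixed proportion to each other. Counts per kilobase of exon put different genes on a common scale, with every base annotated as exon in any transcript of a gene counted as its length. Levels between genes depend on that choice of length. On that scale Lifr over Il6st was 0.855 and 1.08 in serum versus 1.84 and 0.871 in 2i. 2i replicate 1 stood apart from the other 3 libraries, with clearly more Lifr than Il6st. This ratio and the other ratios between genes given here were chosen after the values had been seen.

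Jak1 (ENSMUSG00000028530, mm9 chr4:100824972-100937887, minus strand) encodes a tyrosine kinase bound to the gp130 tail. Its normalized counts were 903 and 1163 in serum versus 1600 and 1686 in 2i. Both serum libraries lay below both 2i libraries, by -0.46 to -0.90 on the log2 scale over the 4 pairings. The means were 1033 ± 184 and 1643 ± 60.9 (SD, n = 2 each). The log2 fold change was -0.68 (SE 0.43, 95% interval -1.70 to 0.35), with an adjusted p of 0.756 in limma and 0.447 in DESeq2.

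Il6st and Jak1, whose products sit in the same receptor complex, lay on opposite sides. Per kilobase, Il6st over Jak1 was 2.44 and 2.33 in serum ESCs versus 0.651 and 0.623 in 2i ESCs. The ratio was close within each group, and per kilobase Il6st was the more abundant transcript of the pair in serum and Jak1 in 2i. Each gene alone had groups that did not overlap, in opposite directions, so the groups of their ratio could not overlap. No test was run on this ratio.

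Stat3 (ENSMUSG00000004040, mm9 chr11:100746412-100800854, minus strand) encodes the transcription factor on which the pathway converges. It was the steadiest of the 8, at 1943 and 2075 normalized counts in serum versus 2112 and 2077 in 2i. Serum replicate 2 and 2i replicate 2 were almost equal, and although both serum libraries lay below both 2i libraries the gap between the groups was smaller than the gap between the serum replicates. The log2 fold change was -0.06 (SE 0.42, 95% interval -1.07 to 0.95, limma adjusted p = 0.979). That interval leaves room for a change of up to about 1 on the log2 scale in either direction, and transcript counts carry no measure of STAT3 phosphorylation. The 3 genes whose centred log2 profile over the 4 libraries lay nearest to Stat3 were Caskin2, Zfp790 and Cpne1, with root mean square differences of 0.0147, 0.0317 and 0.0325. A flat profile is common, and 120 genes lay within 0.1 of Stat3.

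**Figure D2:**
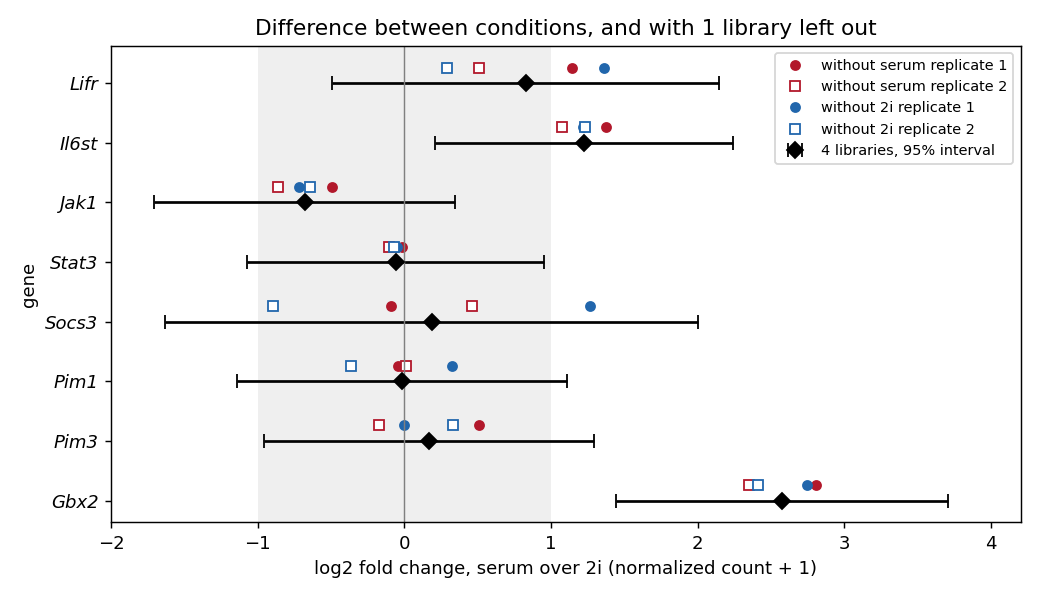
Log2 fold change of serum over 2i for each gene on the log2(normalized count + 1) scale, with the limma estimate and its 95% interval as diamonds and bars, and estimates with 1 library left out as circles and squares. The grey band spans a log2 fold change of -1 to 1; the intervals of Il6st and Gbx2 lie above 0, and the Socs3 estimate moves from -0.90 to 1.27 with the 2i library left out.

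Socs3 (ENSMUSG00000053113, mm9 chr11:117827393-117831361, minus strand) encodes the feedback inhibitor that binds gp130 and Janus kinases and shuts the signal off. It had 3106 and 2119 normalized counts in serum versus 4773 and 1066 in 2i. The 2i libraries held both the highest and the lowest value, 4.48-fold apart, and the serum values lay between them. The means were 2612 ± 698 and 2920 ± 2621 (SD, n = 2 each). The limma log2 fold change was 0.19 (SE 0.75, 95% interval -1.63 to 2.00, adjusted p = 0.964), whereas the ratio of means was 0.895 and edgeR and DESeq2 gave -0.21 and -0.19, so no direction can be read. Leaving out 2i replicate 1 gave a log2 fold change of 1.27 and leaving out 2i replicate 2 gave -0.90.

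For Socs3, 6 genes lay within a root mean square difference of 0.1 of its centred log2 values over the 4 libraries, and the nearest 3 were Sp2, Tmem184b and BC048403. Sp2 was read at 205 and 134 normalized counts in serum versus 303 and 70.8 in 2i. Tmem184b had 557 and 351 in serum versus 869 and 171 in 2i. In both genes, as in Socs3, the 2 serum values lay between the 2i values, which follows from picking them by their likeness to Socs3 in these libraries.

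STAT3 binds DNA as a dimer at spaced palindromes, and the 250 bases before each RefSeq start were searched for TTCNNNGAA and for TTCCNGGAA, which is contained in it. Both motifs read the same on either strand. The sequences come from RefSeq on GRCm38.p6, a later build than that of the files, which gave 10 windows for the 8 genes. TTCNNNGAA was found in 1 of the 10 windows, that of Socs3, and in 7.02% of 32851 promoter windows of the same length. TTCCNGGAA was found in 0 of the 10 and in 0.913% of all windows. The Socs3 match lay 154 to 146 bases before the start, at chr11:117969512-117969520. The window of Socs3 is shown because it holds the match, in capitals, and those of Gbx2 and Il6st because these genes had the smallest p-values. They lie at chr11:117969367-117969616 (minus strand), chr1:89931177-89931426 (minus strand) and chr13:112463820-112464069 (plus strand).
Socs3: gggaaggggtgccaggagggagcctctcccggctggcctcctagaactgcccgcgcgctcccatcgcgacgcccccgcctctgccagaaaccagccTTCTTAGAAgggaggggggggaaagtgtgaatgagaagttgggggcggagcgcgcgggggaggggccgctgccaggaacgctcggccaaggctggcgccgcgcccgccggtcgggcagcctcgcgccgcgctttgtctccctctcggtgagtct
Gbx2: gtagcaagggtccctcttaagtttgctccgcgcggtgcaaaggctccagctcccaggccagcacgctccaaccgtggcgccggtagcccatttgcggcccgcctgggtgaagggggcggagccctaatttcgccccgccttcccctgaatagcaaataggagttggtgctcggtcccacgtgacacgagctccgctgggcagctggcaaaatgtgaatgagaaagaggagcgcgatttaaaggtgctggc
Il6st: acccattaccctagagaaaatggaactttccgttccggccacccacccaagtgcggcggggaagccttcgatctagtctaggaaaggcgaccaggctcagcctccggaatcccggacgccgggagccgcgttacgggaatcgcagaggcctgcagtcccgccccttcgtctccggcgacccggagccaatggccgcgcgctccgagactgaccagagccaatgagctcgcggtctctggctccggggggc
The match describes letters in a window, and windows without a match say only that these letters are not there.

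Pim1 (ENSMUSG00000024014, mm9 chr17:29627757-29632390, plus strand) encodes a serine/threonine kinase of growth and survival. Its normalized counts were 490 and 471 in serum versus 618 and 383 in 2i. As with Socs3, the serum replicates lay between the 2i replicates, and 2i replicate 1 was the highest of the 4. The log2 fold change was -0.02 (SE 0.47, 95% interval -1.14 to 1.11, limma adjusted p = 0.994). Of its exon bases 23.7% are shared with Gm16912, a noncoding RNA gene on the opposite strand, and the strand of the reads is not stated to have been used in counting.

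Pim3 (ENSMUSG00000035828, mm9 chr15:88692616-88696150, plus strand) encodes a related kinase. It was read at 1469 and 2356 normalized counts in serum versus 1476 and 1861 in 2i, with the lowest values of both groups nearly equal. The log2 fold change was 0.17 (SE 0.47, 95% interval -0.96 to 1.29, limma adjusted p = 0.940). Pim3 outnumbered Pim1 per kilobase in all 4 libraries, by 2.44-fold and 4.07-fold in serum and 1.95-fold and 3.96-fold in 2i. Pim2, which is not among the 8 genes, had 70.0 and 122 normalized counts in serum versus 202 and 84.4 in 2i.

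Gbx2 (ENSMUSG00000034486, mm9 chr1:91824537-91829865, minus strand) encodes a homeobox transcription factor known as a STAT3 target in mouse ESCs. It had 714 and 981 normalized counts in serum versus 157 and 124 in 2i. The lower serum library was several times above the higher 2i library, and the gap between the groups was larger than the gap within either. The means were 848 ± 188 and 140.5 ± 23.0 (SD, n = 2 each), a ratio of 6.03. The log2 fold change was 2.58 (SE 0.47, 95% interval 1.44 to 3.71), higher in serum in all 4 pairings with values from 2.18 to 2.97. The unadjusted limma p was 0.00124, and after adjustment over 13005 genes it was 0.753, with 0.692 in edgeR. DESeq2 gave an adjusted p of 7.2e-05, so it called Gbx2 where limma, fitted without a replicate term, and edgeR did not. Over the whole table limma called 2 genes, edgeR 0 and DESeq2 251.

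A gene on the other strand bears on the reading of Gbx2. D130058E05Rik, named after its values were seen, shares 1372 exon bases with Gbx2, which is 32.4% of the Gbx2 exons. Of the 43-base words of Gbx2, 69.3% occur in no protein-coding transcript of another gene. Noncoding transcripts were not searched. D130058E05Rik was read at 2.00 and 0.972 normalized counts in serum versus 73.7 and 35.9 in 2i. Reads of the shared bases could have been divided between both genes. The sum of the genes was 716 and 982 in serum versus 230 and 160 in 2i, a ratio of means of 4.35. The groups thus stayed apart when the reads of both genes were added.

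Set against Stat3 in the same library, the response genes did not move as a block. Per kilobase, Socs3 over Stat3 was 5.27 and 3.36 in serum versus 7.45 and 1.69 in 2i, and Pim1 over Stat3 was 1.22 and 1.10 against 1.41 and 0.891. Pim3 over Stat3 was 2.97 and 4.47 in serum versus 2.75 and 3.53 in 2i. Gbx2 over Stat3 was 0.826 and 1.06 in serum versus 0.167 and 0.134 in 2i, the only one of these 4 ratios whose groups did not overlap. With Gbx2 above and Stat3 below in both serum libraries, that ratio could not overlap, so it adds nothing to the counts of Gbx2.

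The order of the 8 transcripts per kilobase of exon was led by response genes and not by the receptor or Stat3. Close ranks could change with another choice of exon length, such as that of a single transcript, which was not tried. Socs3 was highest by mean in both conditions, at 904 normalized counts per kilobase in serum and 1010 in 2i, followed by Pim3 at 790 and 689. Their single libraries overlapped, since Socs3 ran from 369 to 1651 and Pim3 from 607 to 973. In serum Il6st at 341 and Lifr at 333 came next and did not differ beyond their spread, then Pim1 at 244, Stat3 at 211, Gbx2 at 200 and Jak1 at 143. In 2i the order after Pim3 was Pim1 at 254, Jak1 at 227, Stat3 at 220, Lifr at 196, Il6st at 145 and Gbx2 at 33.1. Il6st went from rank 3 in serum to rank 7 in 2i and Jak1 from rank 8 to rank 4. Neighbours from Pim1 to Il6st overlapped in 2i, as did Stat3 and Gbx2 in serum, while Gbx2 in 2i lay below all the others in both libraries.

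**Figure D3:**
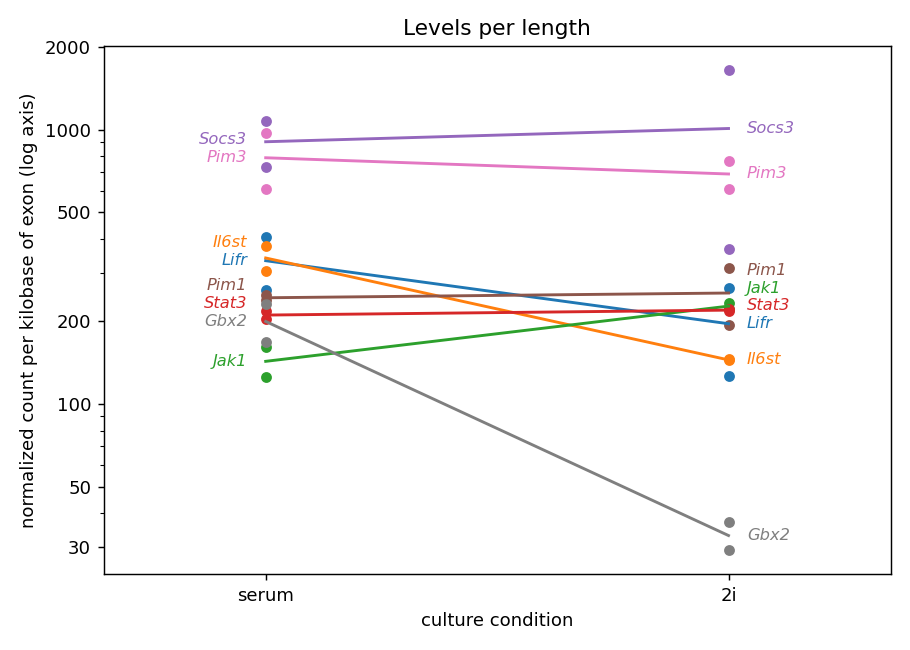
Normalized counts per kilobase of exon on a log axis for the 8 genes in serum (left) and 2i (right). Each gene has its own colour, circles are single libraries and lines join the group means. The replicates are not marked apart. Socs3 and Pim3 are the highest by mean in both groups, and Gbx2 in 2i is the lowest at 33.1.

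The other genes of the pathway were taken from lists by role, 56 genes besides the 8, of which 48 were found in the table by symbol and 46 were tested. In limma 0 of the 46 passed the adjusted threshold, 2 had an unadjusted p under 0.05 with serum higher and 2 with 2i higher, edgeR called 0 and DESeq2 called 1. Their median log2 fold change was -0.07. Both serum libraries stood above both 2i libraries for 14 of the 46 and below for 9, where 20.5% and 19.4% of all genes did so. The unadjusted p passed for 5.97% of all genes, DESeq2 called 1.93% of them and edgeR called 0.

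Upstream of the receptor, Lif was the only ligand of the gp130 family tested out of 7 listed, at 125 and 67.1 normalized counts in serum versus 152 and 140 in 2i (log2 fold change -0.66). This counts the transcript made by the cells and not the LIF added to the media. Ctf1, another ligand, was in the table but below 50 in both groups. Of the 7 receptor genes listed 5 were tested, and only Il6st had an unadjusted limma p under 0.05, against 5.97% of all genes. Cntfr, the alpha subunit for ciliary neurotrophic factor, was low throughout, with 39.0 and 91.4 in serum versus 122 and 0 in 2i. Its log2 fold change was 2.45 in limma, resting on the 0 of 2i replicate 2, and 0.02 in edgeR.

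All 4 Janus kinase genes had a log2 fold change below 0, with a median of -0.88, where 50.3% of all genes lay above 0. For 3 of the 4 both serum libraries lay below both 2i libraries, as 19.4% of all genes did. limma, edgeR and DESeq2 each called 0 of the 4 (1.93% of all genes in DESeq2). An unadjusted limma p under 0.05 was reached by 2, against 5.97% of all genes. Jak3, best known from lymphocytes, was read at 598 and 244 normalized counts in serum versus 1541 and 810 in 2i (log2 fold change -1.55, SE 0.61, unadjusted p = 0.0420, limma adjusted p = 0.753). Tyk2 had 475 and 356 in serum versus 771 and 987 in 2i (log2 fold change -1.08, SE 0.45, unadjusted p = 0.0489). Jak2 overlapped between the groups, at 216 and 247 in serum versus 212 and 379 in 2i. Neither Jak3 nor Tyk2 passed after adjustment.

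Of the 7 STAT genes, all tested, 6 had a log2 fold change below 0, where 50.3% of all genes lay above 0. An unadjusted limma p under 0.05 was reached by 0 (5.97% of all genes). edgeR and DESeq2 each called 0 (1.93% of all genes in DESeq2). The median of the list was -0.41. Stat3, Stat5a, Stat5b and Stat6, 4 of the 7, had both serum libraries below both 2i libraries, as 19.4% of all genes did. Stat4 alone had a value above 0, at 159 and 127 normalized counts in serum versus 128 and 31.0 in 2i.

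Among the negative regulators 15 of 16 were tested, and 10 had a log2 fold change above 0, against 50.3% of all genes. Both serum libraries stood above both 2i libraries for 8 of the 15 and below for 1, against 20.5% and 19.4% of all genes. The median was 0.43, and 0 had an unadjusted p under 0.05 in limma (5.97% of all genes), with 0 called by edgeR or DESeq2 (1.93% of all genes in DESeq2). The groups of Socs3, the member among them, overlapped. Socs4 had 893 and 1394 normalized counts in serum versus 685 and 292 in 2i (log2 fold change 1.32). Ptpn11, which encodes the phosphatase SHP2 that docks at the same gp130 site as SOCS3 and also relays LIF to the MAP kinase branch, had 1472 and 2073 in serum versus 946 and 943 in 2i (log2 fold change 0.89, unadjusted p = 0.0847).

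The branches of LIF signaling that run through adaptors, PI3 kinase and AKT held 10 genes, all tested. Of these 8 had a log2 fold change above 0 (median 0.54), against 50.3% of all genes. Both serum libraries stood above both 2i libraries for 5 of the 10 and below for 1, against 20.5% and 19.4% of all genes. An unadjusted limma p under 0.05 was reached by 1 (5.97% of all genes). limma, edgeR and DESeq2 each called 0 (1.93% of all genes in DESeq2). Pik3ca, a catalytic subunit of PI3 kinase, was read at 812 and 1037 normalized counts in serum versus 404 and 332 in 2i. Both serum libraries were the higher ones, with a log2 fold change of 1.32 (SE 0.44, unadjusted p = 0.0217, limma adjusted p = 0.753). Pik3cb had 585 and 963 in serum versus 451 and 172 in 2i, also without overlap (log2 fold change 1.43, unadjusted p = 0.0553).

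The list of reported STAT3 targets in ESCs contains Socs3, Pim1, Pim3 and Gbx2 and had 12 of 13 genes tested, 6 above 0 and 6 below, with a median of 0.0034. The symbol Tfcp2l1, the gene left untested, was not in the GENCODE annotation used. Its level was therefore not read, and it cannot be called absent or low. Gbx2 and Myc were the 2 with an unadjusted limma p under 0.05, against 5.97% of all genes. Myc was read at 131 and 657 normalized counts in serum versus 7.27 and 4.85 in 2i (log2 fold change 5.41, SE 1.17, unadjusted p = 0.00302, limma adjusted p = 0.753). It was the other gene of the list called by DESeq2, which called 1.93% of all genes. Klf4, a factor that STAT3 is known to drive, lay lower in both serum libraries, at 1127 and 1880 against 3023 and 1974 (log2 fold change -0.75, unadjusted p = 0.180). Gbx2 and Klf4 therefore lay on opposite sides of 0, and neither passed the adjusted limma threshold.

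**Figure D4:**
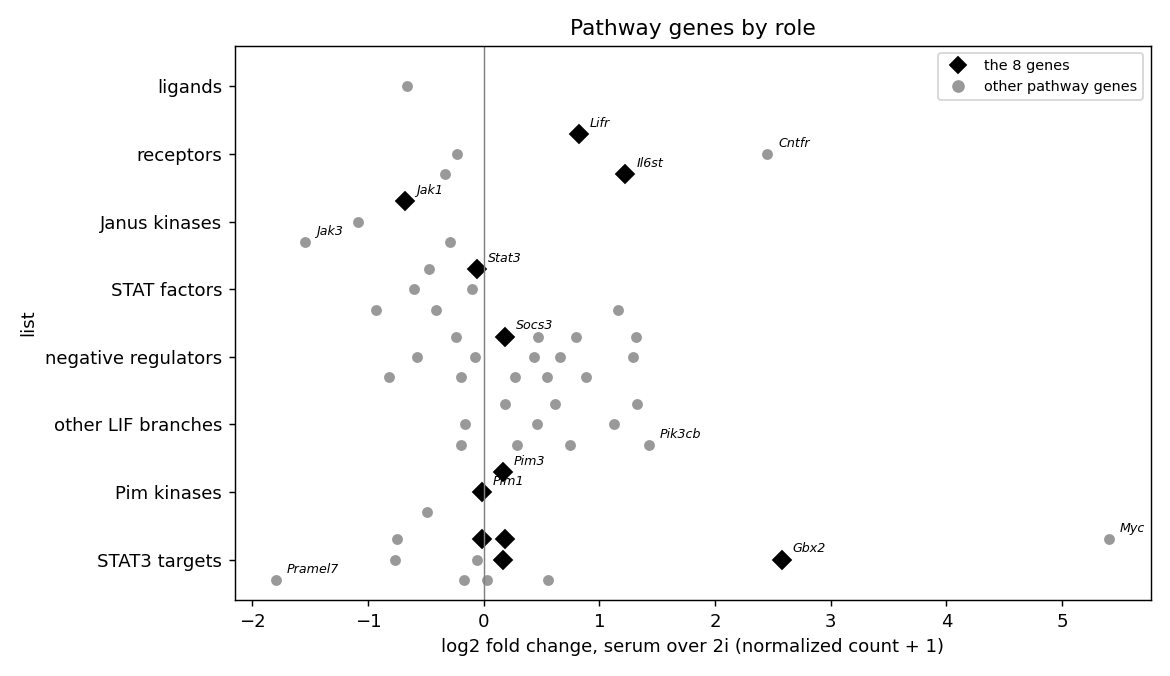
Log2 fold change of serum over 2i for the tested genes of each pathway list, with the 8 genes as black diamonds and the others as grey circles. Values spread on both sides of 0 in most lists; the 4 Janus kinases all lie below 0, and Myc (5.41) and Gbx2 (2.58) are the highest of the STAT3 targets. The value of Cntfr (2.45) rests on a count of 0 in 2i replicate 2.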

How the data were processed

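G1-phase ESCs were sorted by FACS, and total RNA was depleted of ribosomal RNA and sequenced as single-end reads of 43 bases. The authors aligned reads to mm9 with Bowtie, quantified genes with MMSeq and normalised with DESeq2; the deposited values are normalised counts (a signal unit), read counts divided by a size factor per library. No strand setting was stated. Dividing each column by its smallest step returned whole reads for 100% of values (tolerance 0.01), which served for edgeR and DESeq2. The 71 genes without annotation in GENCODE were not left out.

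Genes with a mean of at least 50 in either group entered limma 3.58.1 (R 4.3.3, variance trend, no covariate) on log2(value + 1), with Benjamini-Hochberg adjustment over all of them. That scale can understate changes of low genes, while a single library near 0 can enlarge them, as for Cntfr. A call needed an adjusted p under 0.05 and a log2 fold change beyond 1. Alternatives were edgeR 4.0.16 and DESeq2 1.42.0, other pseudocounts, filters and scalings, a replicate block, omission of each library, and, added after the data were seen, protein-coding genes only. The members and lists were chosen with earlier results of these data known. Genes named were the 8, those of the pathway and marker lists, and the 3 genes with the least root mean square difference to Stat3 and Socs3, besides D130058E05Rik and Gm16912, named because their exons overlap those of Gbx2 and Pim1. Of the tests only limma was run on simulated data. The condition it had to pass was set at a replicate variation far below that of these libraries (edgeR biological coefficient of variation 0.67). Data were simulated at 0.67 as well, but no condition was set there and the outcome is not reported here. The condition passed therefore does not show how limma performs at the variation seen here.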

Additional observations from a re-analysis of the deposited data

How the results depend on the processing

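Under 15 alternatives Lifr, Il6st, Jak1, Stat3 and Gbx2 kept their direction, and of 120 single-gene values 110 kept direction and side of the threshold. Much of this was fixed in advance. Another filter, the block or no trend leaves a fold change as it was. Leaving out a library cannot reverse Il6st, Jak1, Stat3 or Gbx2, whose groups did not overlap. The Stat3 values ran only from -0.18 to -0.01. The count of the 8 genes called was 1 (Gbx2) with DESeq2 and 1 with the replicate block (Gbx2, limma adjusted p = 0.0118), against 0; the block changed no other call among them. Same-numbered replicates deviated together across genes (r = 0.480), but with only 2 pairs this does not establish that they were paired. The median of the 8 ranged from 0.11 to 0.77 with each library left out, 0.77 being without 2i replicate 1. Socs3 turned to -0.21 in edgeR and -0.19 in DESeq2, and with each library left out it ranged from -0.90 to 1.27. Pim1 ranged from -0.36 to 0.33 and Pim3 from -0.17 to 0.51 in the same way. Genes called over the whole table numbered 2, and 4 with a mean of at least 200, 203 with the replicate block, 1 without the variance trend, 0 in edgeR, 251 in DESeq2, 0 with protein-coding genes only, and 0 to 8 with each library left out (8 without serum replicate 1). The cause of these shifts was not tested. Under upper quartile scaling the median of all genes was -0.12. With a library left out, the lone library of its group is assumed to vary like the others. With 2 libraries a group, intervals spanned about 2 or more on the log2 scale, and the 8 genes rested on 128 to 4598 reads per library.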
